A study of Homo sapiens with 9 samples.

Results

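The ALG enzymes of N-glycan assembly were followed as 10 genes, ALG1, ALG2, ALG3, ALG5, ALG6, ALG8, ALG9, ALG10, ALG11 and ALG12, out of 63677 Ensembl genes counted. ALG8 was selected on its counts in this series, because its level was lower in all P95H clones, and the other 9 were added by name as enzymes of the same pathway. The difference of ALG8 between P95H and WT clones is therefore given as a description, without a test. RNA came from 4 CRISPR clones of K562 with the P95H substitution in SRSF2 (P9, P15, P22 and P38), 4 CRISPR clones of K562 with wild-type SRSF2 (W19, W33, W36 and W42) and the uncloned parental K562 line. K562 is a human erythroleukaemia line from a patient with chronic myeloid leukaemia. SRSF2 is a splicing factor that is recurrently mutated in myeloid neoplasms. Each clone is 1 library. Whether the clones descend from independent edits is not in the labels, so p-values measure the spread between these clones, which may be technical. In bulk RNA, fewer cells with a transcript and less of it per cell cannot be told apart.

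ALG enzymes build the sugar chain that is later placed on asparagines of secreted and membrane proteins. The chain grows on dolichol, a long lipid of the endoplasmic reticulum (ER): ALG1, ALG2 and ALG11 add mannoses on the cytosolic side, then ALG3, ALG9 and ALG12 add mannoses on the lumenal side. ALG5 makes dolichol-phosphate glucose, the donor for the last sugars, which ALG6, ALG8 and ALG10 add in that order as glucoses. The finished chain is moved to protein by the oligosaccharyltransferase, and inherited loss of single ALG enzymes causes congenital disorders of glycosylation.

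Promoters are shown for 3 members: ALG8 and ALG3, the members whose levels in P95H clones all lay below those in WT clones, and ALG12, which holds an ER stress element. Each is read 5′ to 3′ on the gene's strand, from 250 bases before to 50 bases after the RefSeq start (GRCh38.p14), at chr11:78139577-78139876 for ALG8, chr3:184248922-184249221 for ALG3 and chr22:49918389-49918688 for ALG12, all on the minus strand. Capitals mark matches, on either strand, to the ER stress element ERSE (CCAAT, then 9 bases of any kind, then CCACG), ERSE-II (ATTGG, 1 base of any kind, CCACG), the unfolded protein response element UPRE (TGACGTGG), the CCAAT box (CCAAT), the GC box (GGGCGG) and the ETS site (CCGGAAG). The ERSE contains a CCAAT box, so those matches overlap.
ALG8: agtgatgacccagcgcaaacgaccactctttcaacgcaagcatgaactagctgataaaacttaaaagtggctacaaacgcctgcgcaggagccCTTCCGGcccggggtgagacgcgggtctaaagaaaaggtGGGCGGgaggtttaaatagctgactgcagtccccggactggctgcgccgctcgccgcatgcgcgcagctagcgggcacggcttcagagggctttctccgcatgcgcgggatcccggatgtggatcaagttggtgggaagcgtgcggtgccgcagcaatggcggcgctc
ALG3: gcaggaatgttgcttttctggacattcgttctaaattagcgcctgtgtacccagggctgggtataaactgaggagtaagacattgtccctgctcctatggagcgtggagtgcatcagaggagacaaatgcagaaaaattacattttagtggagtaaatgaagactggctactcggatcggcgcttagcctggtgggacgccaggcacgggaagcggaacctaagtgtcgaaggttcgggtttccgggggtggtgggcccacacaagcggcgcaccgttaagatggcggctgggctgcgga
ALG12: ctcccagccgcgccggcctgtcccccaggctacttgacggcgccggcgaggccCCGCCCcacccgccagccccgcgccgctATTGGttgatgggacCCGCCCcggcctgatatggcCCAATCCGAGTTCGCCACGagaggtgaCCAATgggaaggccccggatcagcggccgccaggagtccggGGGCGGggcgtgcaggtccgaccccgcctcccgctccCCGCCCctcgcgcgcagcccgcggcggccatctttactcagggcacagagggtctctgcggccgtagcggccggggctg

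In this window ALG8 had 1 ETS site, found in 10.3% of 35116 promoters of this length, and 1 GC box, found in 45.0%. ALG3 had none of the 6 motifs. ALG12 was the single member with an ERSE, which 0.0769% of the promoters hold, and no member had the ERSE-II (0.0541% of promoters) or the UPRE (0.729%). A CCAAT box (34.6% of promoters) was present in 5 members, ALG1, ALG2, ALG5, ALG11 and ALG12. The table held a promoter for 9 of the 10 members, all but ALG10. A match is a match of letters and was not tested as a site.

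Reads counted in genes came to 25208033 to 32593383 in P95H clones, 24546255 to 30902602 in WT clones and 35477328 in the parental library, and a floor of 3 counts corresponded to 0.0846 to 0.122 CPM, the read count scaled to the size of its library. SRSF2 itself stood at 499 ± 62.0 CPM in P95H clones and 489 ± 27.7 CPM in WT clones (SD, n = 4 each), and the counts do not separate its alleles. All 12 K562 and erythroid markers were at 1 CPM or more in every library. By contrast 8 of 10 fibroblast and epithelial, 6 of 8 myeloid and 4 of 8 lymphoid markers were below 1 CPM in every library, with LUM, KRT5 and MS4A1 at 0 throughout. The summed level of the fibroblast and epithelial markers was 44.1 to 141 CPM in P95H clones and 106 to 160 CPM in WT clones. The myeloid markers summed to 16.3 to 60.0 CPM in P95H clones and 16.8 to 28.5 CPM in WT clones, and the lymphoid markers to 4.94 to 23.8 CPM in P95H clones and 14.4 to 36.8 CPM in WT clones. The part of these markers in the results was not tested. W33 stood apart from the other WT clones (root mean square log2 distance 0.71 over all tested genes, against 0.36 to 0.51 for W19, W36 and W42). Among P95H clones P22 was the farthest from the others, at 0.66, against 0.48 to 0.58 for P9, P15 and P38. Of 4 equal groups of genes by length, the shortest had a median of 0.12 and the longest of -0.14 in W33 relative to the WT mean (log2).

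The glucosyltransferase ALG8 (ENSG00000159063, chromosome 11) had 48.7, 45.3, 65.7 and 61.1 CPM in P9, P15, P22 and P38, against 88.1, 96.7, 93.7 and 95.8 CPM in W19, W33, W36 and W42. Every P95H clone was below every WT clone, and the parental line, at 88.1 CPM, sat with the WT clones. The mean was 55.2 ± 9.71 CPM in P95H clones and 93.6 ± 3.89 CPM in WT clones (SD, n = 4 each), so P95H clones held 59.0% of the WT level. As a description, the edgeR log2 difference was -0.75, and it ranged from -0.86 to -0.67 as each clone was left out in turn. ALG8 was chosen on these values, so the range is no support for its fall. P9 and P15 were the lowest clones, at -0.94 and -1.04 relative to the WT mean on the log2 scale, and P22 and P38 stood at -0.51 and -0.61. Without P9 and P15 the log2 difference was -0.55.

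ALG3 (ENSG00000214160, chromosome 3), the first lumenal mannosyltransferase, was the other member with groups that did not overlap. It had 48.9, 55.7, 43.6 and 46.1 CPM in P9, P15, P22 and P38, against 60.9, 88.9, 57.8 and 57.7 CPM in W19, W33, W36 and W42. The highest P95H clone and the lowest WT clone lay close together, and W33 was far above the other WT clones. ALG3 averaged 48.6 ± 5.22 CPM in P95H clones and 66.3 ± 15.1 CPM in WT clones (SD, n = 4 each). Its log2 difference of -0.44 (SE 0.15) did not pass edgeR's quasi-likelihood test (adjusted p = 0.347 over all genes, unadjusted p = 0.0174), nor DESeq2 (adjusted p = 0.176) or limma-voom (0.153). Without W33 the log2 difference was -0.27. The parental line had 56.3 CPM, below every WT clone.

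ALG8 and ALG3 were thus 2 of 10 members lower in P95H clones without overlap, where 4.63% of all 18173 tested genes were so, ALG8 being one by choice. None was higher without overlap (3.94% of all genes, and 8.57% in either direction). All 10 members passed the filter on low counts in both comparisons. By edgeR, 0 of the 9 other members and 0 of 18173 genes passed at an adjusted p under 0.05 (0.00% of genes), with 1 of 9 members and 2130 genes (11.7%) at an unadjusted p under 0.05. DESeq2 called 261 genes (1.44%) and limma-voom 34 (0.187%), and both left all 9 members uncalled. Of the 10 log2 differences 7 were below 0, against 47.9% of all genes, with a median of -0.07 over the members and 0.01 over all genes. Among the 9 without ALG8 the median was -0.02, and values near 0 changed sign with the scaling or with a clone left out.

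**Figure D1:**
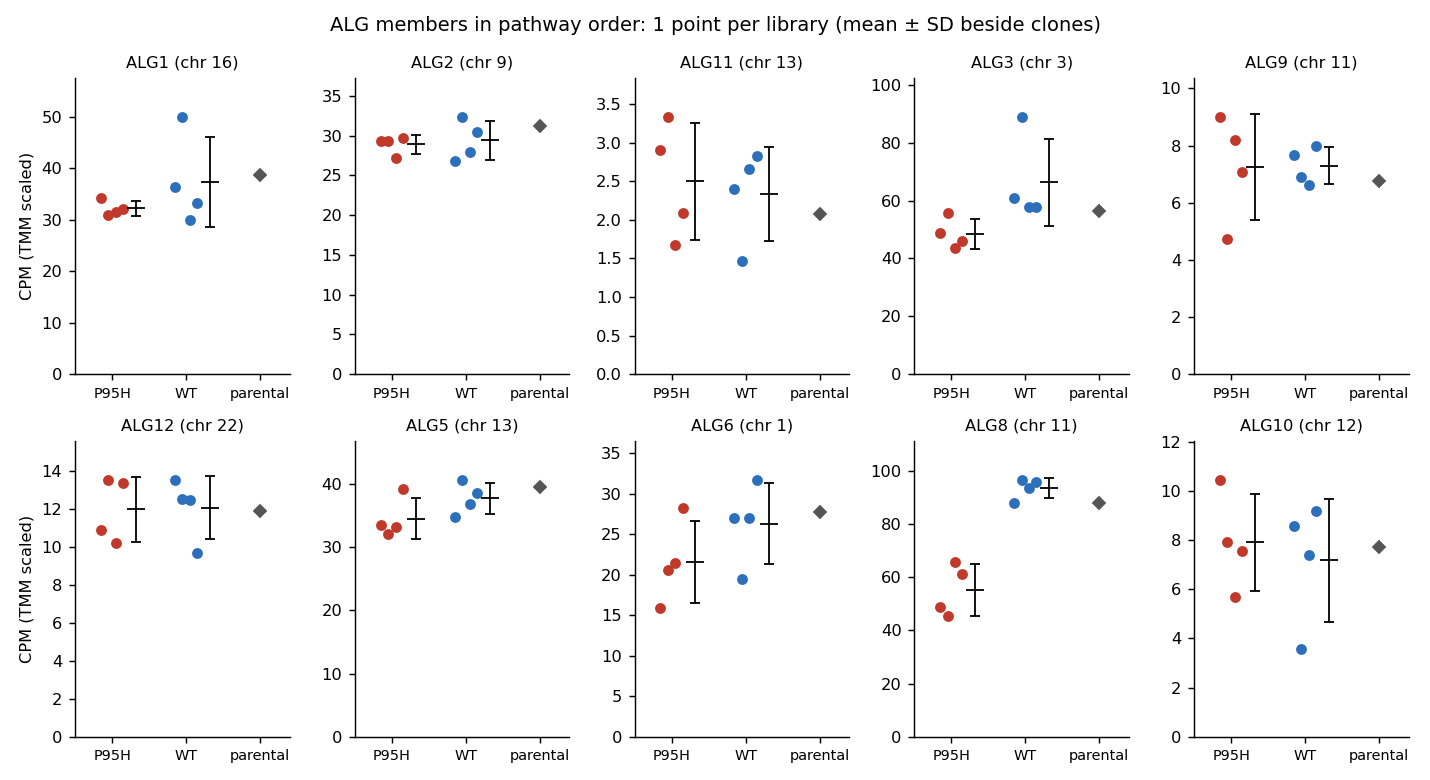
CPM after TMM scaling (y axis, from 0) of each ALG member in every library, in pathway order. Red points are P95H clones, blue points WT clones (each group in the order P9, P15, P22, P38 and W19, W33, W36, W42), the bars beside them mean ± SD (n = 4) and the grey diamond the parental line. ALG8 and ALG3 are the panels in which the 4 P95H clones sit below all 4 WT clones.

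Of the cytosolic mannosyltransferases, ALG2 (chromosome 9), which adds 2 mannoses in turn in yeast and human cells, was the most even, at 27.2 to 29.7 CPM in P95H clones and 26.9 to 32.3 CPM in WT clones. ALG1 (chromosome 16), which adds the first mannose, had 34.2, 30.9, 31.5 and 32.1 CPM in P9, P15, P22 and P38, against 36.3, 49.9, 30.0 and 33.3 CPM in W19, W33, W36 and W42. Apart from W33 the ALG1 values of both groups covered the same range. ALG11 (chromosome 13), which adds the last cytosolic mannoses, was the scarcest member, at 1.67 to 3.34 CPM in P95H clones and 1.47 to 2.83 CPM in WT clones. Their edgeR log2 differences were -0.20 (SE 0.15) for ALG1, -0.02 (SE 0.11) for ALG2 and 0.10 (SE 0.29) for ALG11, with adjusted p = 0.617, 0.966 and 0.917. Without W33 the log2 difference of ALG1 was -0.04, and by limma-voom it was -0.02.

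ALG9 (chromosome 11), which adds mannoses before and after ALG12 acts, had 8.998, 4.73, 8.18 and 7.07 CPM in P9, P15, P22 and P38, against 7.68, 6.89, 6.60 and 7.98 CPM in W19, W33, W36 and W42. P15 alone lay below the WT clones. The log2 difference of ALG9 was -0.0015 with all clones and 0.16 without P15 (edgeR adjusted p = 0.998 and 0.732). ALG12 (chromosome 22), the mannosyltransferase between the steps of ALG9, stood at 10.2 to 13.5 CPM in P95H clones and 9.68 to 13.5 CPM in WT clones (edgeR adjusted p = 0.9998). Both groups of ALG12 covered nearly the same range.

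ALG5 (chromosome 13), the dolichol-phosphate glucose synthase, averaged 34.5 ± 3.24 CPM in P95H clones and 37.69 ± 2.50 CPM in WT clones (SD, n = 4 each, log2 -0.12, SE 0.11, edgeR adjusted p = 0.683). ALG6 (chromosome 1), which adds the glucose before that of ALG8, had 15.9, 20.6, 21.5 and 28.3 CPM in P9, P15, P22 and P38, against 27.0, 19.5, 27.0 and 31.7 CPM in W19, W33, W36 and W42. P9 was the lowest library for ALG6, and P15, P22 and P38 lay within the range of the WT clones, whose lowest was W33. The log2 difference of ALG6 was -0.28 (SE 0.20, adjusted p = 0.601), -0.17 without P9 and -0.07 without P9 and P15. ALG10 (chromosome 12), which adds the last glucose, ranged from 5.67 to 10.5 CPM in P95H clones and from 3.56 to 9.16 CPM in WT clones (edgeR adjusted p = 0.876). W33 was the lowest library for ALG10, and the log2 difference of 0.14 turned to -0.08 without it. The 3 glucosyltransferases therefore did not share one pattern over the clones: P9 was lowest for ALG6, highest for ALG10 and second lowest among all libraries for ALG8.

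**Figure D2:**
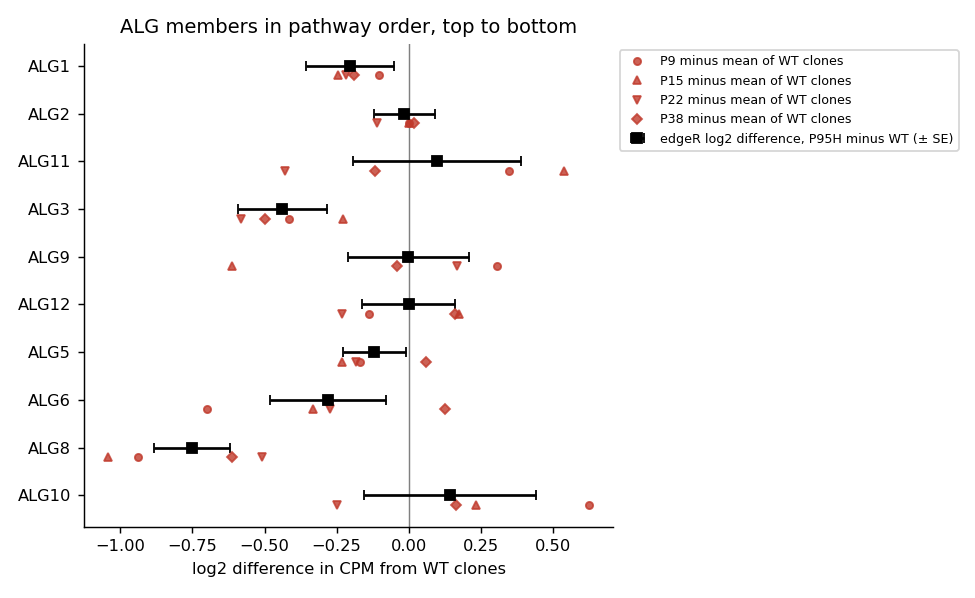
Log2 difference from WT clones (x axis) of each member in pathway order. Black squares with bars are the edgeR difference of P95H minus WT ± SE, and red symbols give each P95H clone minus the WT mean. The bar of ALG8, which was chosen on these values, is not a test. All 4 clones lie below 0 for ALG1, ALG3 and ALG8, and for ALG9 P15 lies apart at -0.61.

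Several members share bases with other genes. ALG10B, a second copy of ALG10 on chromosome 12, is identical to ALG10 at 97.7% of the 1419 coding bases, so how reads were split between them is uncertain. With ALG10 and ALG10B summed the log2 difference was 0.09, against 0.14 for ALG10 alone. ALG11 shares 39.7% of its exon bases with UTP14C and ALG9 24.4% with the read-through gene AP001781.2, both on the same strand. ALG1 shares 22.2% with NAGPA-AS1 on its strand. On the other strand ALG10 shares 42.2% with AC046130.1, ALG12 39.0% with AL671710.1 and ALG1 20.1% with EEF2KMT. ALG8, ALG2, ALG5 and ALG6 shared no exon bases with another annotated gene.

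Per length, as TPM (reads scaled to exon length and then to the library), the members spanned a wide range in WT clones: ALG8 averaged 59.2 ± 5.40 TPM, ALG3 41.1 ± 4.53, ALG5 37.4 ± 2.80, ALG2 21.4 ± 1.67, ALG1 17.6 ± 2.33, ALG6 10.6 ± 2.89, ALG12 4.91 ± 0.75, ALG10 3.66 ± 1.51, ALG9 1.99 ± 0.33 and ALG11 0.50 ± 0.17 TPM (SD, n = 4 each). ALG8 was at 52.1 to 65.0 TPM in WT clones, above every other member, while ALG3 and ALG5, ALG2 and ALG1, ALG12 and ALG10, and ALG10 and ALG9 overlapped. In P95H clones ALG8 averaged 35.97 ± 6.56 TPM, and its range of 28.6 to 44.0 TPM overlapped those of ALG5 (31.8 to 38.4 TPM) and ALG3 (28.6 to 35.0 TPM). ALG8 made up 18.9 to 26.8% of the summed TPM of the 10 members in P95H clones and 27.6 to 31.4% in WT clones. The levels of ALG1, ALG9, ALG10, ALG11 and ALG12 carry the shared bases above.

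ALG8 and ALG9 lie on chromosome 11, part of which was lower as a block in P15, so each member was set beside the 10 nearest tested coding genes on each side. In P15 the 20 neighbours of ALG8 had a median of -0.47 relative to the WT mean (log2) and 16 of 20 were below 0, while ALG8 itself was at -1.04. In P9, P22 and P38 the median of the neighbours was 0.07, 0.08 and -0.04, and ALG8 was at -0.94, -0.51 and -0.61. ALG8 minus its neighbours was -1.01, -0.57, -0.59 and -0.58 in P9, P15, P22 and P38, against -0.10, 0.10, 0.02 and -0.05 in W19, W33, W36 and W42. The mean difference between the groups was -0.68 after the neighbours were subtracted, and -0.72 to -0.57 with single clones left out. Both rest on the values ALG8 was chosen on, so they are a description and no support for its fall. Over the 8 clones together 0 of the 20 neighbours had groups that did not overlap with P95H lower. The share over all genes was 4.63%, which 20 genes cannot tell apart from 0. None of the 20 had a log2 difference below that of ALG8, which was chosen for its fall. In single clones 0, 0, 1 and 3 of the 20 were below ALG8 in P9, P15, P22 and P38. NDUFC2, a subunit of respiratory complex I directly on one side, averaged 20.9 ± 9.15 CPM in P95H clones and 19.1 ± 5.93 CPM in WT clones. KCTD21, on the other side, averaged 6.03 ± 0.39 CPM in P95H clones and 6.30 ± 1.03 CPM in WT clones (SD, n = 4 each).

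**Figure D3:**
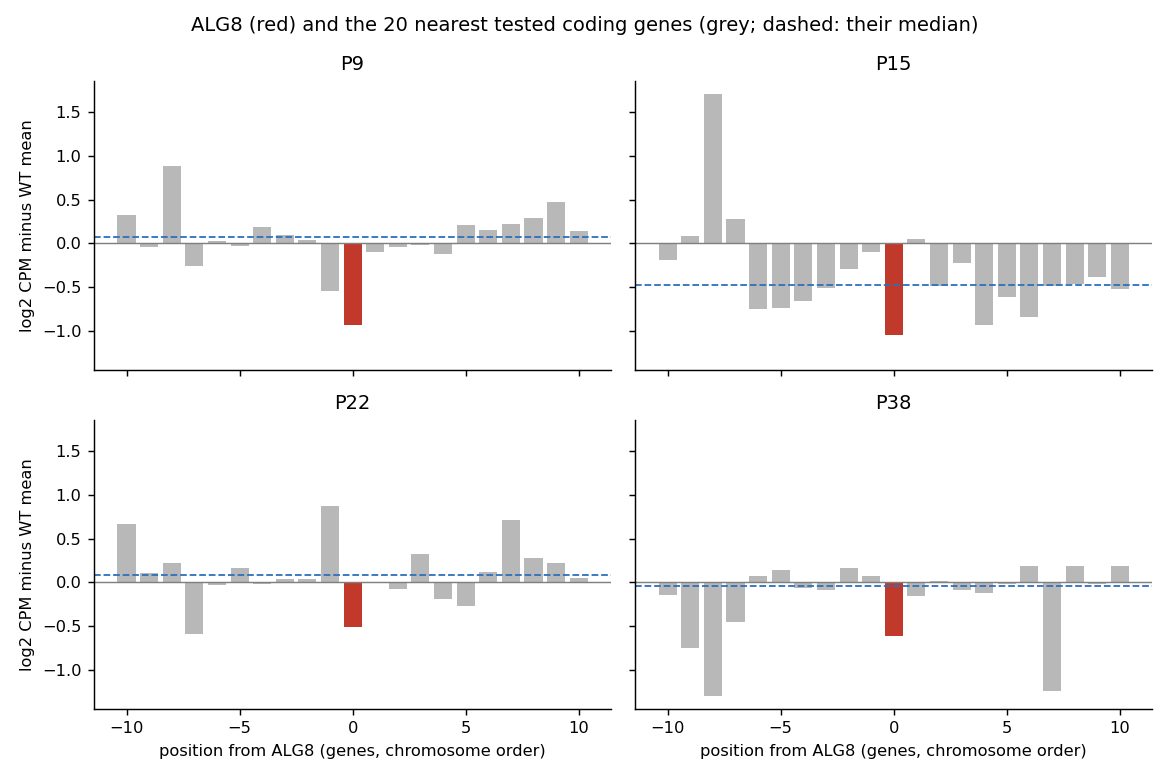
Log2 CPM minus the WT mean (y axis) of ALG8 (red) and the 10 tested coding genes on each side in chromosome order (grey, x axis in genes), with the median of the 20 neighbours as a dashed line, in each P95H clone. The dashed line is at -0.47 in P15 and between -0.04 and 0.08 in the other 3, and ALG8 lies below it in all 4.

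For ALG9 the neighbours were at -0.72 in P15 and ALG9 at -0.61, and in the other P95H clones the neighbours were at 0.01 to 0.12. For ALG6 on chromosome 1 the neighbours were at -0.47 in P9 and ALG6 at -0.70, with neighbours at 0.08, -0.07 and 0.17 in P15, P22 and P38. ALG6 was also low in W33 (-0.41), where its neighbours had a median of -0.66. Neighbour medians of the other members in W33 ran from -0.43 for ALG10, itself at -0.91, to 0.32 for ALG1, itself at 0.44. For ALG3 the neighbours were at -0.16 to -0.05 in P95H clones, and ALG3 minus its neighbours was -0.48 to -0.18. In WT clones ALG3 minus its neighbours was -0.20 to 0.23, so the groups overlapped. The part of these regional shifts in the members' levels was not tested.

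Other genes of the pathway carried the same regional shifts. In P15, all 7 listed genes on chromosome 11 were below the mean of the other P95H clones. The log2 difference was -0.36 for ALG8, -0.51 for GANAB, -0.58 for STT3A, -0.72 for TMEM258, -0.74 for DPAGT1, -0.76 for ALG9 and -0.88 for HYOU1. DPAGT1, which starts the dolichol-linked chain, had 64.7, 39.2, 69.9 and 62.0 CPM in P9, P15, P22 and P38, against 68.6, 77.8, 70.6 and 69.4 CPM in W19, W33, W36 and W42. STT3A, a catalytic subunit of the oligosaccharyltransferase, had 225, 145, 209 and 215 CPM in P9, P15, P22 and P38, against 225, 221, 230 and 243 CPM in W19, W33, W36 and W42. For DPAGT1 and STT3A P15 stood well below all other libraries. In P9, the first 5 of 9 listed genes along chromosome 1, DDOST, DHDDS, ALG6, ALG14 and DPM3, were at -0.70 to -0.35 relative to the other P95H clones, and the next 4 were at 0.02 to 0.21.

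Of 49 other genes of N-glycan assembly, 48 were tested. GMPPB, whose exon bases are shared with AMIGO3 at 42.3%, had too few reads, a mean of 2.89 counts per library. By edgeR 0 of the 48 passed (smallest adjusted p = 0.320). An unadjusted p under 0.05 was found in 7 (11.7% of all genes), all of them lower in P95H clones. A log2 difference below 0 was found in 39 of 48, against 47.9% of all genes, with a median of -0.13. In 6 of 48 (12.5%) all P95H clones were below all WT clones, against the 4.63% of all genes given above, and in 0 of 48 all were above. Since these lists were chosen with results of these clones known, the counts are a description. The counts below 0 were 36 to 40 with single clones left out and 35 without W33 and P22.

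Within the first steps, ALG14, which anchors the enzyme that adds the second N-acetylglucosamine, had 5.21, 8.06, 7.82 and 9.66 CPM in P9, P15, P22 and P38, against 12.45, 13.25, 11.03 and 11.88 CPM in W19, W33, W36 and W42. The groups did not overlap, and P9, with the shift of chromosome 1, was the lowest clone. Its log2 difference was -0.65 (SE 0.19, edgeR adjusted p = 0.320, DESeq2 adjusted p = 0.0616). ALG13, the catalytic partner of ALG14, did not show this: it averaged 42.2 ± 4.22 CPM in P95H clones and 40.1 ± 5.67 CPM in WT clones (SD, n = 4 each). DPAGT1 had a log2 difference of -0.27 and did not pass (edgeR adjusted p = 0.540).

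Among the 9 genes of dolichol and dolichol-linked sugars 7 lay below 0 (median log2 -0.09), against 47.9% of all genes. In 0 of the 9 the groups did not overlap, against 8.57% of all genes. DPM3, which tethers the dolichol-phosphate mannose synthase, averaged 8.39 ± 1.77 CPM in P95H clones and 13.4 ± 4.39 CPM in WT clones (SD, n = 4 each, log2 -0.66). Its catalytic subunit DPM1 averaged 98.4 ± 7.95 CPM in P95H clones, against 113 ± 8.86 CPM in WT clones. The polyprenol reductase SRD5A3 averaged 29.9 ± 5.91 CPM in P95H clones, against 25.9 ± 2.63 CPM in WT clones, and the dolichol-chain synthase subunit DHDDS 49.3 ± 11.7 CPM in P95H clones, against 43.7 ± 4.95 CPM in WT clones. In the supply of sugar nucleotides, 7 of 9 tested genes lay below 0 (median -0.12), against the same 47.9%, again with 0 free of overlap. GFPT1, which opens the hexosamine pathway, had a log2 difference of 0.30, UGP2, which makes UDP-glucose, -0.18, PMM1 -0.21 and GMPPA -0.39. None of these 8 genes passed edgeR over all genes.

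Of the 12 subunits of the oligosaccharyltransferase, 11 lay below 0 (median log2 -0.22), against 47.9% of all genes. RPN2 had 429, 487, 394 and 491 CPM in P9, P15, P22 and P38, against 553, 565, 556 and 524 CPM in W19, W33, W36 and W42. RPN1 had 186, 215, 205 and 228 CPM in P9, P15, P22 and P38, against 234, 273, 243 and 243 CPM in W19, W33, W36 and W42. Both of these shared subunits lay below all WT clones in every P95H clone (2 of 12, against 4.63% of all genes). Their log2 differences were -0.28 and -0.24, with edgeR adjusted p = 0.351 and 0.400. OSTC and DAD1 had log2 differences of -0.24 and -0.27 with overlapping groups.

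After transfer, glucosidases and lectin chaperones act on the chain, and 11 of those 13 genes lay below 0 (median log2 -0.14), against 47.9% of all genes. In 3 of them, PDIA3, MOGS and CALR, all P95H clones were below all WT clones, as in 4.63% of all genes. PDIA3, a disulfide isomerase, averaged 228 ± 15.4 CPM in P95H clones and 312 ± 62.3 CPM in WT clones (SD, n = 4 each, edgeR adjusted p = 0.329). MOGS, which removes the glucose that ALG10 adds, averaged 63.1 ± 2.87 CPM in P95H clones and 75.9 ± 9.12 CPM in WT clones. The lectin chaperone CALR stood at 737 ± 32.9 CPM in P95H clones and 860 ± 79.8 CPM in WT clones. W33 was the highest WT clone for PDIA3, MOGS and CALR, at 401, 89.3 and 975 CPM. The other WT clones had 259 to 306, 69.2 to 73.5 and 802 to 853 CPM. PRKCSH, the noncatalytic subunit of the next glucosidase, overlapped between the groups (log2 -0.25). By edgeR 0 of the 13 passed over all genes.

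Genes of the unfolded protein response, listed because ER stress induces parts of this pathway, were below 0 in 12 of 17 (median log2 -0.29), where 47.9% of all genes were. In 5 of the 17 all P95H clones were below all WT clones, against 4.63% of all genes. The disulfide isomerase PDIA6 averaged 358 ± 37.0 CPM in P95H clones and 481 ± 23.8 CPM in WT clones, and the chaperone HSP90B1 531 ± 106 CPM in P95H clones and 768 ± 53.9 CPM in WT clones (SD, n = 4 each). MANF, a secreted stress protein, and SDF2L1, a cochaperone, had log2 differences of -0.56 and -0.68, with W33 the highest library for both. By edgeR 0 of the 17 passed over all genes (PDIA6 adjusted p = 0.286, HSP90B1 0.300). By DESeq2, which called 1.44% of all genes, both PDIA6 (adjusted p = 0.00877) and HSP90B1 (0.0484) passed, lower in P95H clones. By limma-voom neither did (adjusted p = 0.0773 and 0.113). The genes named here were picked by smallest unadjusted p in edgeR, and 5 of the 17 lay above 0, among them DNAJB9 (log2 0.33, groups overlapping).

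**Figure D4:**
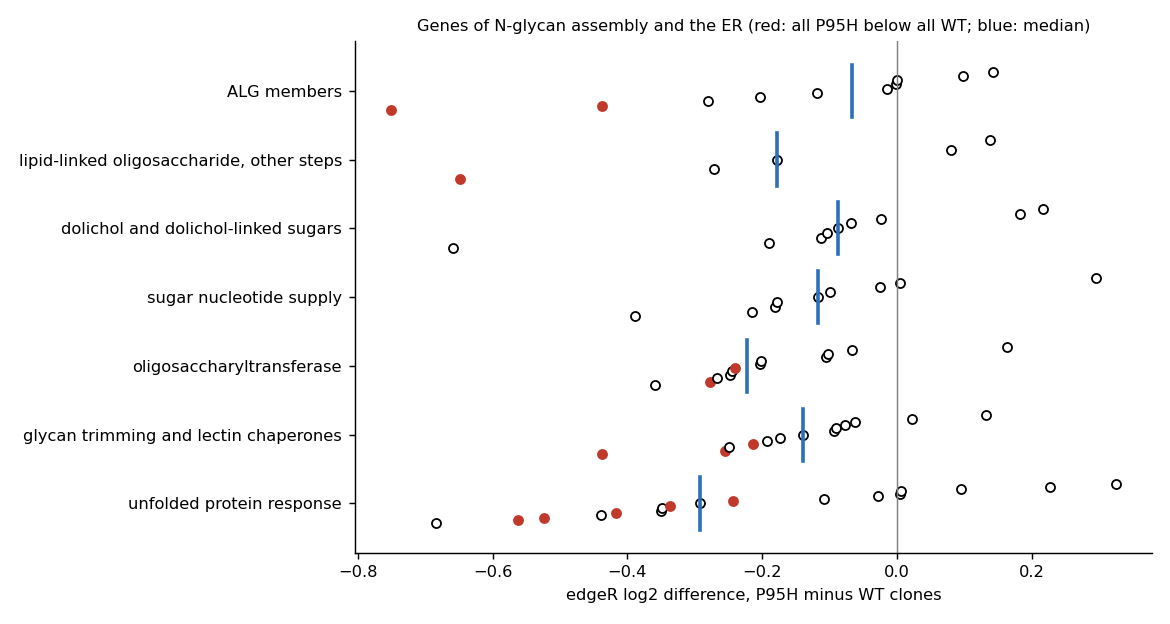
EdgeR log2 difference of P95H minus WT clones (x axis) for every tested gene of each list. Red points are genes with all 4 P95H clones below all 4 WT clones, open points overlap, and blue bars are list medians, which lie between -0.29 and -0.07.

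ALG12 is the member whose promoter holds an ERSE, and it lies head to head with CRELD2, a gene of the unfolded protein response on the other strand with which it shares 3.14% of its exon bases. CRELD2 had 15.9, 17.5, 18.8 and 19.99 CPM in P9, P15, P22 and P38, against 22.8, 32.7, 23.9 and 19.3 CPM in W19, W33, W36 and W42. ALG12 stood at a log2 difference of 9.45e-05 and CRELD2 at -0.44, and the groups of both genes overlapped.

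The parental line was set against the WT clones in a fit of all 9 libraries that takes the spread between clones as the spread of the unreplicated parental library. Of the 10 members 0 passed (edgeR adjusted p = 1 for each) and 0 had an unadjusted p under 0.05, against 0.00485% and 1.72% of the 20636 genes tested. Log2 differences were -0.24 for ALG3, -0.18 for ALG11, -0.11 for ALG9, -0.09 for ALG8 and 0.10 for ALG10, and those of the others lay between -0.02 and 0.09. Of the 10 differences 5 were below 0, against 52.9% of all genes. For 9 of 10 members the parental value was inside the range of the WT clones, ALG3 being the exception.

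The genes most like ALG8 were sought among 8812 coding genes averaging 10 CPM or more, as the smallest root mean square distance between log2 CPM profiles over the 9 libraries, each centred on its own mean. The nearest 6 were SLCO4A1, an organic anion transporter (distance 0.15), the adhesion receptor ADGRE5 (0.16), the zinc finger gene ZNF32 (0.16), CISD1, an iron-sulfur protein of the outer mitochondrial membrane (0.17), CRYZL1 (0.17) and FAM216A (0.17), where the median distance was 0.45. They lie on chromosomes 20, 19, 10, 10, 21 and 12. TTC12 and PTS, at ranks 7 and 8 (0.17 each), lie on chromosome 11, as ALG8 does. SLCO4A1 averaged 13.4 ± 1.20 CPM in P95H clones and 20.8 ± 0.558 CPM in WT clones, and CISD1 47.2 ± 4.52 CPM in P95H clones and 65.4 ± 3.18 CPM in WT clones (SD, n = 4 each). Since these genes were picked for likeness to ALG8, their lower means in P95H clones follow from the choice. No ALG member was among the nearest 6. ALG9, ALG10 and ALG11 averaged under 10 CPM and so were not in the search.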

How the data were processed

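RNA of 9 K562 cultures was poly(A)-selected and sequenced on a HiSeq2000 after TruSeq library preparation, per the labels' protocols. The authors deposited raw read counts per Ensembl gene, made with bcl2fastq, TopHat2 2.0.4 and HTSeq 0.6.1p1 on GRCh37, per the submitters' processing notes, and the strand setting was not given in the sources used here, nor was the overlap mode. Reads of a gene and its antisense partner cannot be told apart. The 5 summary rows of each list, 55.8 to 56.7% of the reads listed, stayed out of library sizes and tests. Symbols, chromosomes, gene order, exon lengths (for TPM) and coding sequences came from GENCODE 29 by gene ID (52526 of 63677 matched), a GRCh38 annotation, so no coordinates of the counts are given. Promoters came from RefSeq (GRCh38.p14).

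P95H and WT clones, grouped by sample title, were compared with edgeR 4.0.16 (R 4.3.3): filterByExpr, TMM, robust quasi-likelihood fit, F test, two-sided, Benjamini-Hochberg adjustment over all genes at 0.05. SEs are the log2 difference divided by the square root of F. CPM are TMM-scaled over the 9 libraries, log2 CPM used a prior count of 2. The code was tested on simulated data. Alternatives were RLE and upper quartile scaling, TMM without chromosomes 1 and 11, DESeq2 1.42.0, limma-voom 3.58.1 with quality weights, no filter on low counts, a minimum of 1 CPM in 4 libraries, a 3-group fit, ALG10 with ALG10B, windows of 5 and 20 neighbours, and each clone left out. Leaving out W33 with P22, each the farthest from its group, was added after seeing the data. So was leaving out P9 with P15, the P95H clones with the shifts of chromosomes 1 and 11. W33 had regional shifts too. Members, lists and the naming rule (all members, up to 4 genes per list by smallest unadjusted p, the direct neighbours and 6 nearest profiles of ALG8, and genes a result turns on) were chosen with earlier results of these data known. The floor of 3 counts covers counting error only, while SDs and SEs include the spread between clones. One gene that the naming rule covers is not reported here.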

Additional observations from a re-analysis of the deposited data

Results flagged for a closer look

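In groups of 4 clones, a library was marked where its gap to the next one exceeded Dixon's critical share of the group's range, which chance does in about 1 of 20 groups. Of 68 groups of ALG members and named pathway genes 7 were marked. In 5 of them the library was W33, which lay above the other WT clones for ALG3 (88.9 CPM, against 57.7 to 60.9), DAD1 (105.8 CPM, against 76.7 to 78.1), SDF2L1 (413 CPM, against 191 to 227) and MANF (53.1 CPM, against 30.5 to 31.7), and below them for ALG13 (31.7 CPM, against 42.2 to 43.9). ALG2 in P22 was low at 27.2 CPM, against 29.3 to 29.7 CPM in the other P95H clones. SRD5A3 in W42 was high at 29.8 CPM, against 24.2 to 24.8 CPM in the other WT clones.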

How the results depend on the processing

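Of 500 alternative values for 29 results, 448 kept their direction and, where tested, their side of the threshold, or for counts stayed within 1.5 times. Another 37 changed sign, and 15 counts moved further. For P95H against WT, the 448 include all 18 values of ALG8 and all 10 of ALG8 minus its neighbours. Those were also required to change by less than the SD between P95H clones. ALG8 was chosen on these clones, so they are no support for its fall. Sizes could still change: with single clones left out, P95H against WT ranged from -0.31 to -0.04 for ALG1 (nearest 0 without W33) and from -0.43 to -0.17 for ALG6. No member other than ALG8 was called under any alternative. As a description of the gene chosen on these values, the log2 difference of ALG8 ranged from -0.86 to -0.67 with single clones left out. It was -0.55 without P9 and P15. Relative to its neighbours it was -0.65 with 5 and -0.67 with 20 genes on each side. From 6 to 9 members lay below 0. The number of genes called between P95H and WT clones, 0 by edgeR (2130 at an unadjusted p under 0.05), was 2 without a filter, 261 by DESeq2, 34 by limma-voom, 5 without W33 and P22, and 0 to 1 with single clones left out.

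Sign changes were among members with differences near 0, and the cause was not tested. For P95H against WT, ALG12 was -0.0050 with RLE scaling, -0.017 with upper quartile scaling, -0.0012 with TMM without chromosomes 1 and 11, -0.0048 by DESeq2, -0.038 by limma-voom, -0.0087 in the 3-group fit and -0.021 without P9 and P15. ALG9 was 0.0079 without a filter, 9.97e-05 with the 1 CPM filter, 0.022 by limma-voom and 0.080 without P9 and P15. ALG2 was 0.051 by limma-voom and 0.052 without W33 and P22. By limma-voom and without P9 and P15, ALG10 was -0.0032 and -0.11, and ALG11 -0.11 and -0.31. For the parental line against WT, ALG10 was -0.038 by limma-voom and -0.13 without W33 and P22, where ALG6 was -0.057. With single clones left out, P95H against WT ranged from -0.068 to 0.027 for ALG2, -0.13 to 0.16 for ALG9, -0.081 to 0.28 for ALG10, -0.075 to 0.24 for ALG11 and -0.10 to 0.062 for ALG12. Parental against WT ranged from -0.040 to 0.22 for ALG1, -0.052 to 0.18 for ALG6, -0.13 to 0.24 for ALG10 and -0.11 to 0.039 for ALG12.

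No paired analysis was possible because the clones of the groups share no replicate numbers. Depth limits ALG11 most, with 33 to 108 counts per clone.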

Other observations

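SRSF2 is known to bind exonic CCNG and GGNG, and the P95H form to favour CCNG over GGNG. Both tetramers were counted on the coding strand, overlaps included, in the longest GENCODE 29 coding sequence of 12017 genes. ALG8 held 13 CCNG and 12 GGNG in 1578 coding bases, or 0.824 and 0.760 per 100 bases, where the medians of all genes were 2.32 and 2.09. The other glucosyltransferases were as sparse, with 0.855 and 0.723 per 100 bases in ALG6 and 0.916 and 0.705 in ALG10. For CCNG the same held in ALG11 and ALG5, with 0.813 and 0.926 per 100 bases, next to 1.56 and 1.54 for GGNG. CCNG made up 52.0% of both tetramers in ALG8, against a median of 52.5%. ALG3 held 3.12 CCNG and 1.90 GGNG per 100 bases. Exon use was not measured in these gene counts.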
